A study of Mus musculus with 44 samples.

Results

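Hippocampus and frontal cortex of mice that had received lipopolysaccharide (LPS, a bacterial outer membrane component that triggers innate immunity) 24 h earlier were compared for DNA methylation. The comparison takes 8 of the 44 libraries of the series, 4 of hippocampus and 4 of cortex, and the 1112921 cytosines listed on the same strand in both 24 h tables (1164178 in hippocampus and 1370712 in cortex). All animals were wild-type adult male C57BL/6J mice aged 8 to 12 weeks and of about 30 g. Each of them had drunk corticosterone (CORT, the main rodent glucocorticoid) at 200 mg/L in 0.6% ethanol for 7 days, and had received diisopropyl fluorophosphate (DFP), which blocks acetylcholinesterase irreversibly, at 4 mg/kg into the peritoneum on day 8 and further CORT in alternate weeks until 5 weeks had passed. A subcutaneous dose of LPS (0.5 mg/kg) ended the schedule. No library came from a mouse without CORT and DFP, and the saline libraries cited for comparison (3 of hippocampus, 4 of cortex) were taken at 6 h, so no saline group matches the time. The labels do not tell whether the 4 libraries of a region are separate animals or whether both regions came from the same animals, so each p-value refers to the spread among these samples alone, and that spread may be technical.

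Methylation of cytosine in CG pairs (CpG) is copied at each cell division and removed by the TET enzymes, and its pattern differs between cell types. Enhancers that are active in a cell type are often less methylated in it, while CpG islands at gene starts are mostly unmethylated everywhere. Hippocampus holds dentate granule and CA pyramidal neurons, and its dentate gyrus keeps making neurons in adult mice, whereas frontal cortex holds layered projection neurons. Reduced representation bisulfite sequencing (RRBS) reads the share of methylated molecules at cytosines of CpG-rich fragments. Bisulfite does not separate methylcytosine from hydroxymethylcytosine, its TET oxidation product, so the values count both. Values are percentages within a library, differences are in percentage points, and genome windows of 1 kb with 3 or more measured cytosines are called tiles.

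Promoter sequences show where such a difference lies. Among 8692 RefSeq windows (GRCm38.p6, 250 bases before to 50 after a gene start) with at least 3 measured cytosines, 4 are shown: the 3 with the largest deficit and the 1 with the largest excess in hippocampus, among named genes with at least 5 measured cytosines, groups that did not overlap and a called promoter. CpGs with a measured cytosine are in capitals, and each sequence runs 5′ to 3′ along the gene's strand.
Chdh (chr14:30021053-30021352, + strand): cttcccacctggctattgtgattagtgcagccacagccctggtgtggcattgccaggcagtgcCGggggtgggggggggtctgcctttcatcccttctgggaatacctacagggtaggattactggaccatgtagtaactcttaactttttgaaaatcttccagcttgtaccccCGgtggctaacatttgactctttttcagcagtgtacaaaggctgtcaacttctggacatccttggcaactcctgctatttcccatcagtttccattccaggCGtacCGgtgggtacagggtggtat
Espnl (chr1:91321825-91322124, + strand): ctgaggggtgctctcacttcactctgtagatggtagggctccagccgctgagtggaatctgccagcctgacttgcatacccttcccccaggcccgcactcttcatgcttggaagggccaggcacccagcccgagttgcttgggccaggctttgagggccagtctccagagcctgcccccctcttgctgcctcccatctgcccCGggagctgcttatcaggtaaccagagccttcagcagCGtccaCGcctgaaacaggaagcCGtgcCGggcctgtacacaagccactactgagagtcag
Scn8a (chr15:100936021-100936320, + strand): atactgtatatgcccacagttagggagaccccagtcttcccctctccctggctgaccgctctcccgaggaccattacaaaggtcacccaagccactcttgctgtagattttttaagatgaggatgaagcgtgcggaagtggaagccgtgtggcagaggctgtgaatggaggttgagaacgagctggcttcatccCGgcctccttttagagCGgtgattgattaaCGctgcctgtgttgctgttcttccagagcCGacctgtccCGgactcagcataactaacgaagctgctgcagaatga
Cort (chr4:149126714-149127013, − strand): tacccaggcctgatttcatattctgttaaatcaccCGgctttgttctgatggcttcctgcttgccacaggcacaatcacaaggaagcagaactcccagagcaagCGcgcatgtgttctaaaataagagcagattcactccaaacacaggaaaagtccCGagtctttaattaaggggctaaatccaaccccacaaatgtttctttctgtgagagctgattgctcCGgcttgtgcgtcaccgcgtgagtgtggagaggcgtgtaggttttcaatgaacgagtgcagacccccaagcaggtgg

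The libraries differed in a way that the regions do not explain. At CpGs measured on both strands (199447), the 2 strands disagreed by over 50 points at 1.55% and 1.51% of CpGs in hippocampus replicates 1 and 2 and at 1.15% in cortex replicate 3 (set A), against 0.0246, 0.0326 and 0.0120% in hippocampus replicates 3 and 4 and cortex replicate 2. Cortex replicates 1 and 4 stood between, at 0.0847 and 0.0526% (set B). The strand differences correlated at r = 0.883 to 0.924 within set A, at 0.695 within set B and at 0.120 to 0.195 between libraries of different sets, over 13941 CpGs of the same libraries. The sets were drawn by clustering these correlations, so a higher r within than between them follows from how they were made. In RefSeq promoter windows, 1864 of 1992 cytosines of such CpGs (strands over 30 points apart in at least 1 library) lay in the letters CCGG, which read the same on both strands, against 17719 of 132388 other measured cytosines, and 52.8% of all windows hold CCGG. Set A cuts across the regions, whereas set B holds cortex libraries only. With the sets as a term, cortex replicates 1 and 4 therefore carry no part of the regional estimate at LPS 24 h. It compares hippocampus with cortex replicates 2 and 3 only. What made the sets was not tested, and counts of tiles, promoters and genes called at LPS 24 h are given with the sets as a term as well. Left out are the counts of tiles within a gene, gene list or stretch, those by level or place, and those in saline.

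The window of Chdh, which encodes the choline dehydrogenase of mitochondria, averaged 51.4, 52.4, 49.7 and 40.03% in hippocampus replicates 1 to 4 and 75.4, 73.2, 68.7 and 75.9% in cortex replicates 1 to 4. All hippocampus libraries lay below all cortex libraries, which was a condition for showing the window. Its means differed by -24.9 points (hippocampus minus cortex). Of its 5 measured cytosines, 4 had differences of -24.3 to -36.7 points, and the cytosine 26 bases after the start stood at 82.96% ± 4.56 (SD, n = 4) against 85.6% ± 9.37 (n = 4). The window of Scn8a, the gene of a voltage-gated sodium channel found at the axon initial segment, averaged 43.5, 34.2, 29.5 and 19.4% in hippocampus replicates 1 to 4 and 54.9, 47.6, 60.6 and 58.2% in cortex replicates 1 to 4. Its 8 measured cytosines were all lower in hippocampus on average, with differences of -13.9 to -31.3 points, but at single cytosines the replicates spread widely (SD up to 26.4 points). Espnl, which encodes an actin-binding protein of the espin family, stood at 35.1 to 50.4% in hippocampus and 61.9 to 71.5% in cortex over 9 cytosines. Cort, which encodes the neuropeptide cortistatin of cortical and hippocampal interneurons, went the other way, with 54.9, 44.3, 50.9 and 38.7% in hippocampus replicates 1 to 4 and 38.5, 35.7, 27.7 and 31.96% in cortex replicates 1 to 4. The promoter of Cort was called at an adjusted p of 0.042 (limma) and no longer with the strand sets as a term (adjusted p = 0.074). Over the 10 cytosines of that promoter the groups overlapped, with hippocampus replicate 2 at 52.2% and cortex replicate 2 at 53.6%. Only 2 of the 33 windows that met the conditions for showing were higher in hippocampus.

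The mean level over all shared cytosines was 26.7, 26.2, 26.1 and 25.1% in hippocampus replicates 1 to 4 and 26.9, 27.8, 27.9 and 26.4% in cortex replicates 1 to 4. Cortex replicate 4 lay below hippocampus replicate 1, so the groups overlapped. The difference of -1.25 points had p = 0.057 (two-sided exact permutation test over 70 arrangements; the smallest p possible is 0.029), which misses 0.05. The 2 cortex libraries of set B had the lowest means of their group, in saline as in LPS. Within set A the difference was -1.42 points and among the libraries of neither set -2.27, each over 3 libraries and untested. The first principal component of the tested tiles held 59.5% of the variance and parted all hippocampus from all cortex libraries. The second (11.5%) set hippocampus replicate 4 and the set B libraries apart from the other 5. The depth behind a value is unknown, since the tables hold no read counts.

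**Figure D1:**
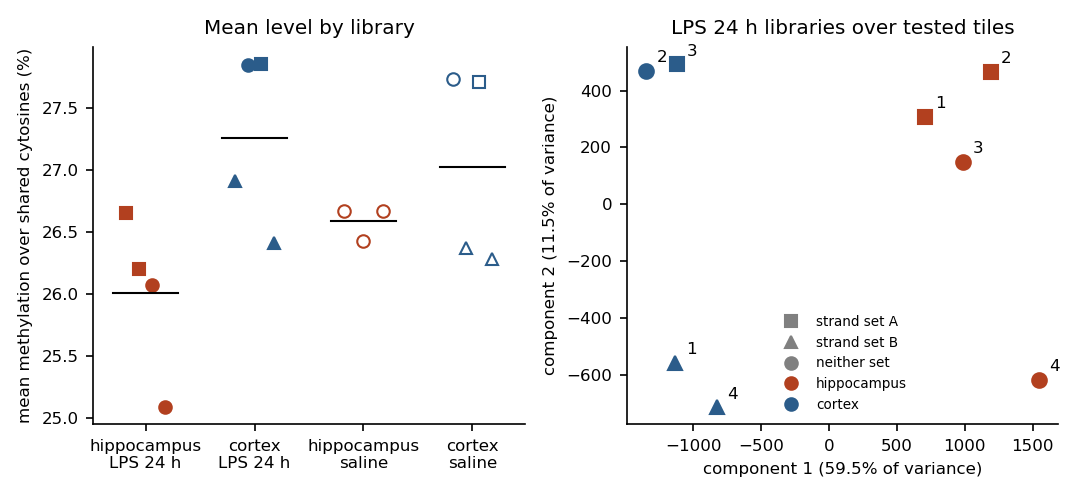
Left, mean methylation over the shared cytosines (%) for each LPS 24 h library (filled) and saline library (open), with a line at the group mean; right, the first and second principal components of the 8 LPS 24 h libraries over tested tiles, numbered by replicate. Marker shapes give the strand set: hippocampus means run from 25.1 to 26.7% and cortex means from 26.4 to 27.9%, and the first component holds 59.5% of the variance.

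Locally, hippocampus was less methylated than cortex far more often than the reverse. Of 54791 tested tiles, 9791 were called lower in hippocampus (17.9%) and 1313 higher (2.4%), together 20.3% (limma, adjusted p under 0.05 and at least 5 points). The median level of the lower tiles was 35.3% in hippocampus and 57.6% in cortex, and the median difference -16.2 points. The higher tiles were more methylated in both regions, at a median of 84.3% and 68.4%. In 8878 of the lower and 1091 of the higher tiles the 4 hippocampus and 4 cortex libraries did not overlap, which the call itself favours. Over all tested tiles, 12694 (23.2%) did not overlap, 10983 of them with hippocampus lower. With the strand sets as a term, 9070 tiles were called lower and 663 higher; 7767 of the lower and 593 of the higher calls were kept. Centring each library on its own mean gave 8588 lower and 2133 higher tiles. Fewer cells of a type and another level within that type cannot be told apart in such bulk tissue.

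Single cytosines showed the same balance. Of 369879 tested, 26961 were called lower in hippocampus (7.29%) and 2779 higher (0.751%), 8.04% in all (limma, at least 10 points). The lower cytosines stood at a median of 29.2% in hippocampus and 62.5% in cortex, and 16814 of them differed by at least 25 points. The count of all cytosines called in either direction at 10 points, 29740, moved with single libraries. It was 16320 without hippocampus replicate 4, 17169 without cortex replicate 1, 18958 without hippocampus replicate 3 and 19542 without cortex replicate 2.

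Tiles of intermediate methylation carried most of the deficit. Among tiles with a mean of 20 to 50% over the 8 libraries, 42.9% of 9699 were called lower in hippocampus and 1.68% higher. At 50 to 80% the shares were 25.1% and 4.17% of 13162, and at 80 to 95% they were 4.32% and 2.11% of 25742. A tile near 0 or 100% has less room to differ by 5 points, so these shares are not independent of the call rule. By place, 20.5% of 26686 tiles inside genes but over 1 kb from a RefSeq start were called lower, 15.7% of 24353 outside genes and 13.03% of 3131 near a start. Higher calls were rarest near starts, at 0.926% of tiles against 2.77% inside genes and 2.17% outside. Exons, introns and UTRs could not be placed, because the gene table used gives spans only.

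**Figure D2:**
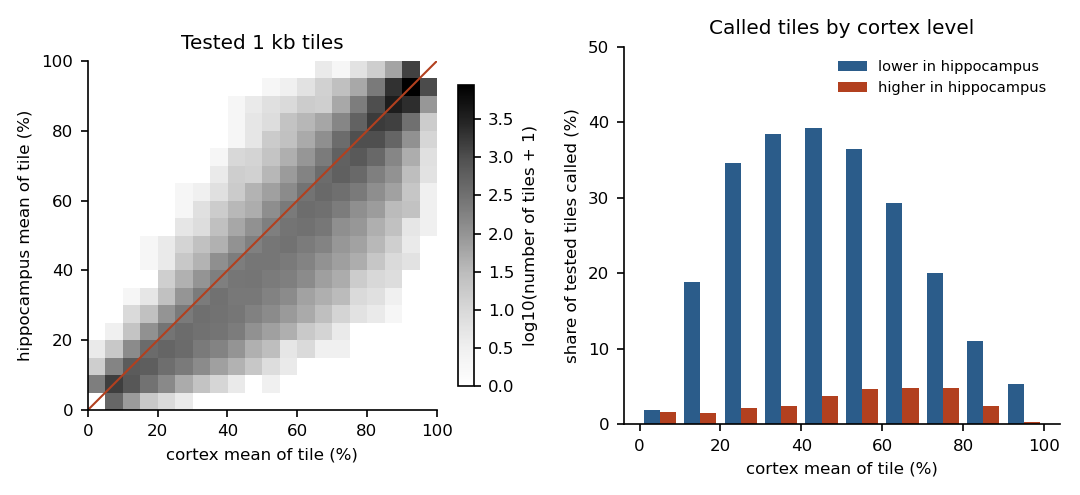
Left, tested tiles by their mean in cortex (x axis, %) and in hippocampus (y axis, %), shaded by the log10 number of tiles plus 1, with the line of equal levels; right, the share of tested tiles called lower or higher in hippocampus (%) by cortex mean in steps of 10 points. The share called lower peaks at 39.3% for cortex means of 40 to 50% and is 5.35% above 90%.

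The 20 tiles with the largest differences inside or beside genes, 10 in each direction, ran from -59.96 to 42.01 points. They were taken among called tiles whose groups did not overlap, 1 per gene. They rest on 3 to 9 cytosines, with 3 in Zfp608, Mad1l1 and Rora and 4 in Grk3, Cdh23, Slit3 and Eif4g3. The tile in Grk3 (chr5:112971000-112971999), the gene of a G protein-coupled receptor kinase, stood at 21.8, 14.4, 13.7 and 17.3% in hippocampus replicates 1 to 4 and 65.8, 72.8, 88.3 and 67.99% in cortex replicates 1 to 4. The difference, hippocampus minus cortex, was -56.9 points (SE 4.82, adjusted p = 3.05e-05), and cortex replicate 3 was the highest library. The tile in Zfp608, a zinc finger gene on chromosome 18, had the largest deficit, with 30.8, 27.9, 31.5 and 16.7% in hippocampus replicates 1 to 4 and 89.5, 87.9, 83.3 and 85.9% in cortex replicates 1 to 4, a difference of -59.96 points (SE 4.17, adjusted p = 2.78e-05). The tile in Cdh23 (chr10:60570000-60570999), the cadherin of hair cell tip links, averaged 29.7% ± 10.5 in hippocampus and 82.9% ± 4.94 in cortex (SD, n = 4 each), and that in Slit3 (chr11:35338000-35338999), a secreted axon guidance ligand, 29.9% ± 5.28 in hippocampus and 81.3% ± 5.18 in cortex. In Mad1l1, a spindle checkpoint gene, the levels were 30.05 and 84.8%, with hippocampus replicates from 15.5 to 38.9%. The other 5 lower tiles, in Slco2a1 (a prostaglandin transporter), Sipa1l3, St6galnac4 (a sialyltransferase), Ssc5d and Dhrs7, ranged from 17.1 to 43.2% in hippocampus and from 68.9 to 94.3% in cortex. All 10 lay inside a gene and over 1 kb from a RefSeq start.

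In the other direction, the tile in Rora (chr9:68926000-68926999), which encodes the nuclear receptor ROR alpha, stood at 86.4, 86.3, 88.8 and 83.3% in hippocampus replicates 1 to 4 and 26.98, 65.3, 50 and 34.5% in cortex replicates 1 to 4. The difference was 42.01 points (SE 6.57, adjusted p = 5.88e-04), the hippocampus libraries were close together and the cortex libraries were far apart, with both set B libraries lowest. Fitted with the strand sets, the difference was 28.6 points (adjusted p = 0.0034). Rora was not higher throughout: of its 16 tested tiles, 3 were called higher and 3 lower. The tile in Eif4g3 (chr4:138166000-138166999), a translation initiation factor gene, stood at 85.6, 90.97, 92.02 and 91.96% in hippocampus replicates 1 to 4 and 52.4, 59.99, 44.1 and 53.7% in cortex replicates 1 to 4. Pde11a, a cyclic nucleotide phosphodiesterase gene, had 93.2% ± 1.55 in hippocampus and 56.6% ± 5.58 in cortex at chr2:76057000-76057999. Pcdh7, a protocadherin gene, had 88.04% ± 3.27 in hippocampus and 52.1% ± 6.57 in cortex at chr5:57821000-57821999, and Cyfip2, a subunit of the WAVE complex that regulates actin, had 82.4% ± 7.12 in hippocampus and 45.3% ± 6.502 in cortex over 9 cytosines at chr11:46265000-46265999. The remaining 5, in Myo1a, Smim43, Col12a1, Zkscan17 and Sbf2, were 34.7 to 37.8 points higher in hippocampus, and of the 10 only the tile in Smim43 lay within 1 kb of a start. All 20 tiles passed the test with the strand sets as a term.

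**Figure D3:**
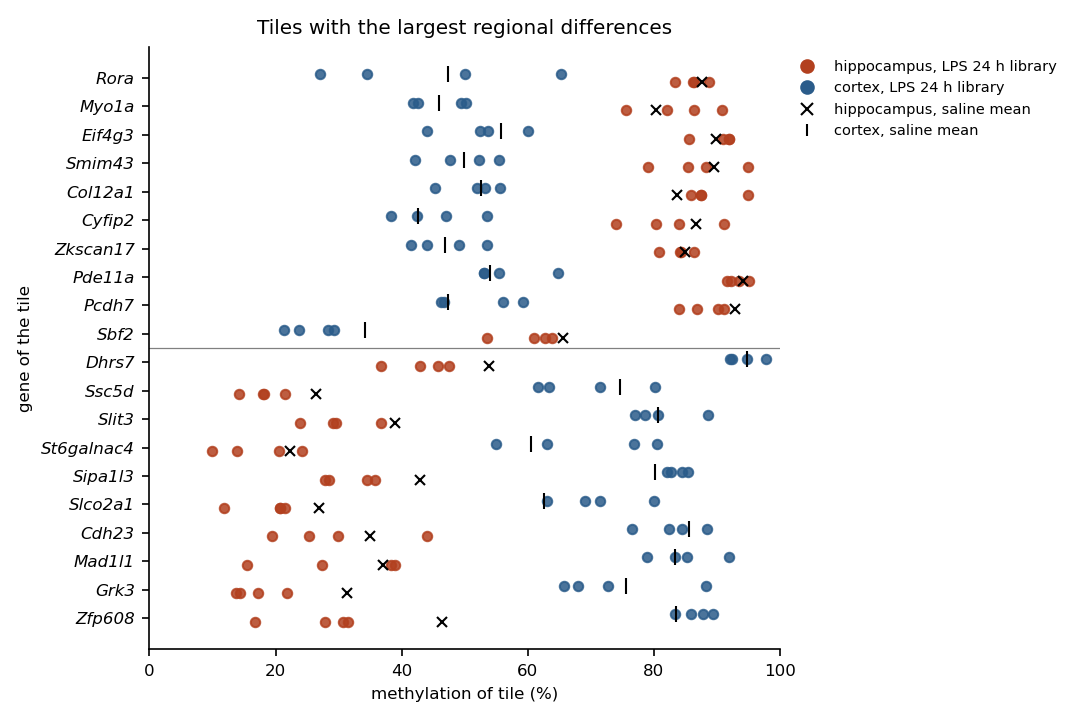
Methylation (%) of the 20 tiles with the largest regional differences, 1 row per gene; circles are the 4 hippocampus and the 4 cortex LPS 24 h libraries, and crosses and ticks the saline means. Only tiles whose groups do not overlap were eligible. Differences run from 42.01 points in Rora to -59.96 points in Zfp608, and the saline means of the 2 regions have the same order in every row.

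Neighbouring called tiles formed 507 stretches of at least 2 tiles that were lower in hippocampus and 36 that were higher (tile starts at most 2000 bp apart). The longest lower stretch held 6 called tiles of 8 tested over 10 kb, from the end of Trmt1 across Lyl1 into Nfix (chr8:84699000-84708999). Its called tiles stood at 13.5 to 15.8% in the hippocampus and 22.6 to 31.5% in the cortex libraries. Levels of stretches are means over called tiles only, which favours groups that do not overlap. Nfix encodes a nuclear factor I protein needed for hippocampal development, and 17 of the 21 tiles tested in it were called lower and 0 higher, against 17.9% and 2.4% of all tiles. Stretches of 5 tiles lay in Gse1 (31.8% ± 2.89 against 53.7% ± 1.92) and in Tbc1d16 (22.02% ± 3.20 against 35.3% ± 5.02). Stretches of 4 lay in Trak1, which links mitochondria to kinesin (21.1 against 47.4%), and in Pnoc, the gene of the nociceptin precursor (28.02 against 43.1%).

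The longest higher stretch, 4 tiles with 80 cytosines, lay upstream of Zfp503, a zinc finger repressor gene of the developing forebrain (chr14:21990000-21994999; the RefSeq start is at 21989601 on the − strand). It stood at 27.3% ± 1.69 in hippocampus and 14.98% ± 1.91 in cortex (SD, n = 4 each). A second stretch of 3 tiles at the other end of the gene (chr14:21982000-21984999) stood at 37.7% ± 3.89 and 22.6% ± 5.09. Within 0.3 kb of the start the 25 cytosines averaged 1.48 and 1.10%. With the strand sets as a term, the adjusted p (limma) of the 4 called tiles inside or within 1 kb of Zfp503 was 0.042 to 0.075. Of these calls, 2 were lost. These tiles are not the 4 of the longest stretch, of which only the tile from chr14:21990000 is among them. Results with the sets are not given for its other tiles.

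Prox1, the transcription factor that sets the identity of dentate granule neurons, was lower in hippocampus in all 6 tested tiles of its span. As a mean over 76 cytosines (chr1:190118035-190170827 and 1 kb either side) it stood at 13.9, 12.3, 12.4 and 11.8% in hippocampus replicates 1 to 4 and 24.4, 26.8, 27 and 23.4% in cortex replicates 1 to 4. The difference was -12.8 points (SE 0.895, adjusted p = 3.02e-04). The groups were far apart against their spread, and the saline means were 14.6 and 24.3%. The tiles lay well inside the gene, from 9.53 to 60.2% in hippocampus and from 27.5 to 96.2% in cortex, with the largest gap at chr1:190137000-190137999 (22.97% ± 4.81 against 60.03% ± 6.01). Within 0.3 kb of the start its 30 cytosines averaged 0.303 and 0.406%.

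**Figure D4:**
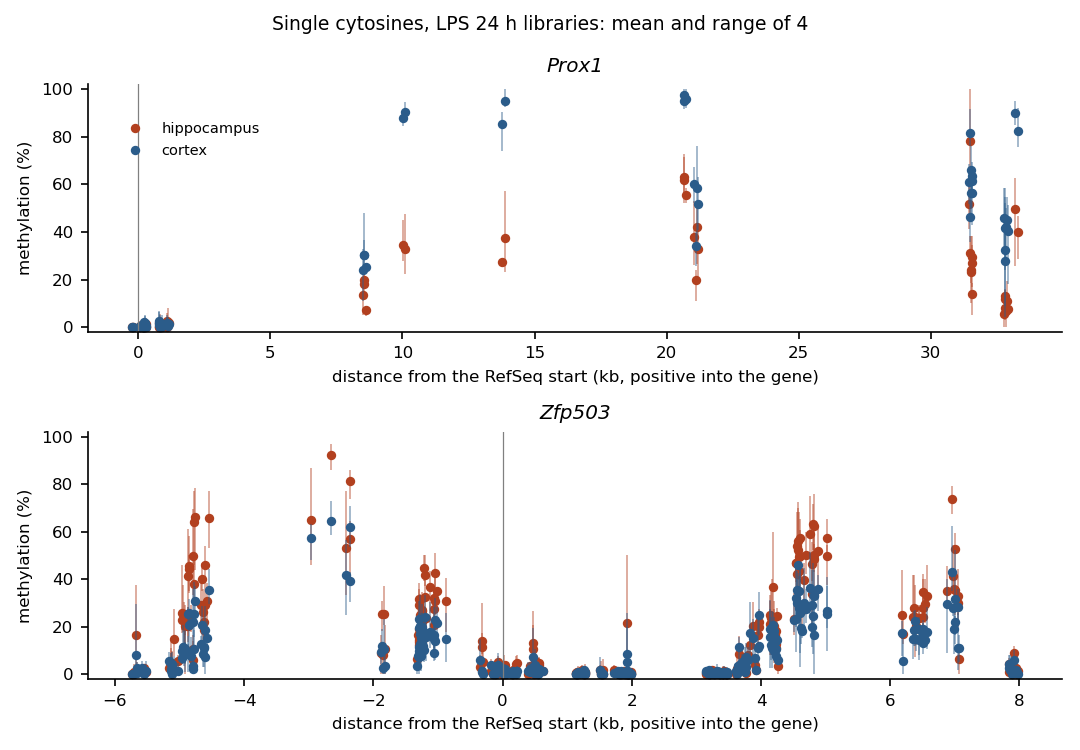
Methylation (%) of single cytosines along Prox1 and Zfp503 by distance from the RefSeq start (kb); points are means and lines the range of 4 LPS 24 h libraries in hippocampus and in cortex. Levels within 0.3 kb of the start average under 2% in both genes and regions, Prox1 is lower in hippocampus inside the gene and Zfp503 is higher in hippocampus on both sides of its start.

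Genes were then compared as the mean over their span and 1 kb either side. Of 11058 tested genes, 2174 were called lower in hippocampus (19.7%) and 114 higher (1.03%), 20.7% in all (limma, adjusted p under 0.05). The median over all tested genes was -0.726 points. This split depended on scaling: centring each library on its own mean moved that median to 0.526 points and gave 1529 lower and 1464 higher genes, so small differences in either direction have to be read against that shift. With the strand sets as a term 2856 genes were called lower and 48 higher, and without cortex replicate 2 the calls numbered 1435. Every called gene with values below kept its direction under each setting tried, and those that lost their call with the strand sets as a term are named.

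Of the markers of hippocampal neurons, 9 of 20 tested genes were called lower in hippocampus and 0 higher (8 and 2 after centring, 10 and 0 with the sets as a term), with a median of -1.84 points. Zbtb20, a repressor that specifies CA1 pyramidal neurons, stood at 28.2, 27.9, 27.9 and 27.5% in hippocampus replicates 1 to 4 and 32.9, 33.1, 32.6 and 32.4% in cortex replicates 1 to 4. The difference was -4.85 points (SE 0.447, adjusted p = 5.98e-04), with an SD of 0.320 points in hippocampus and 0.323 in cortex, and 4 of its 5 tested tiles were lower. Grik4, the kainate receptor subunit of CA3 neurons, had 39.4 against 46.2% over 241 cytosines, and 12 of its 28 tiles were called, all lower. Lct and Ociad2, both listed as markers of hippocampal neurons, had 79.6 against 89.6% and 36.3 against 49.3%, with only 4 cytosines in Ociad2. The lower and higher calls over all genes were 19.7% and 1.03% of all tested genes. Of the tiles in this list, 33 lower and 1 higher of 104 were called, against 17.9% and 2.4% of all tiles.

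Of the markers of cortical layers, 5 of 18 tested genes were called lower in hippocampus and 0 higher (4 and 2 after centring, 7 and 0 with the sets as a term), with a median of -0.871 points. Bcl11b, a transcription factor of deep-layer projection neurons that granule and CA1 neurons also express, had 26, 25.3, 25.02 and 22.6% in hippocampus replicates 1 to 4 and 31.7, 34.1, 31.4 and 29.3% in cortex replicates 1 to 4, and 13 of its 24 tiles were called, all lower. Lmo3, Scnn1a and Lamp5 had 40.9 against 46.2%, 18.7 against 23.7% and 6.70 against 9.99%. Tbr1, a deep-layer factor, averaged 4.17 and 3.68% and fell under the 5% limit for a test. Of the tiles in this list, 29 lower and 9 higher of 136 were called, against 17.9% and 2.4% of all tiles. The gene calls stand against 19.7% and 1.03% of all tested genes, and the lists of hippocampal and cortical markers were not tested against each other. RNA was not measured, so the labelled regions could be compared with their markers by methylation only. Prox1 and Zbtb20 were less methylated in hippocampus, but 11 of the 20 tested hippocampal markers were not called. The 5 called cortical layer markers were lower in hippocampus as well.

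Of genes of adult neurogenesis, 3 of 5 tested genes were called lower in hippocampus and 0 higher (3 and 1 after centring, 3 and 0 with the sets as a term), with a median of -2.40 points, against 19.7% and 1.03% of all tested genes. Of their tiles, 8 of 23 were called lower and 1 higher, against 17.9% and 2.4% of all tiles. Hopx, a homeodomain protein of dentate stem cells, stood at 13.2, 13.7, 12.8 and 12.6% in hippocampus replicates 1 to 4 and 18.3, 18.2, 18.5 and 17.1% in cortex replicates 1 to 4. The difference was -4.98 points (SE 0.416, adjusted p = 4.86e-04). Its tile at chr5:77092000-77092999 had 26.8% ± 4.24 against 68.8% ± 3.28, and its tile near the start (chr5:77114000-77114999) was lower as well. Notch1, a receptor that maintains stem cells, had 20.2 against 24.5% and Igfbpl1, a marker of newborn neurons, 11.1 against 13.5%.

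Among other neuronal genes, 8 of 23 glutamate receptor genes were called lower and 0 higher (5 lower and 4 higher after centring, 10 and 0 with the sets as a term), with a median of -1.13 points. Gria1, an AMPA receptor subunit, had 42.4 against 47.7%, and Grm4, a metabotropic receptor, 19.1 against 23.2%. Grik1 (74.96 against 78.7%) lost its call with the strand sets as a term (adjusted p = 0.16). Of excitatory and pan-neuronal genes 2 of 8 were lower (1 lower and 2 higher after centring, 2 and 0 with the sets as a term), among them Camk2a (39.3 against 45.8%), the kinase of postsynaptic plasticity, and Dlg4 (20.7 against 24.1%), the scaffold PSD-95. Of inhibitory neuron genes 3 of 16 were lower (2 lower and 4 higher after centring, 3 and 0 with the sets as a term), with Adarb2 at 69.6 against 77.8%, Kit at 22.98 against 27.5% and Sox6 at 18.8 against 21.2% (Sox6 not with the sets as a term, adjusted p = 0.069). Markers of striatal neurons, which a dissection of frontal cortex could hold, had 4 lower and 1 higher of 11 (4 lower and 3 higher after centring, 4 and 0 with the sets as a term). The higher one was the dopamine receptor gene Drd1 (11.99 against 9.09%), which was named after its value was seen and was not called with the sets as a term. Pdyn, the prodynorphin gene that dentate granule neurons also express, had 35.8 against 45.6%. Markers of thalamus and choroid plexus had 1 lower of 10 (1 lower and 2 higher after centring, 5 and 0 with the sets as a term), Prlr (23.9 against 30.5%). Of the tiles in glutamate receptor genes 22.8% were called lower and 2.97% higher. The tile calls were 17 lower and 0 higher of 78 in excitatory, 8 lower and 1 higher of 64 in inhibitory and 13 lower and 0 higher of 75 in striatal genes, and 14 lower and 6 higher of 57 in markers of thalamus and choroid plexus, against 17.9% and 2.4% of all tiles. The part of such neighbouring tissue in the differences was not tested. The gene calls of these lists stand against 19.7% and 1.03% of all tested genes.

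Genes of glia and vessels were also lower where they were called. Of astrocyte markers, 4 of 9 tested genes were called lower in hippocampus and 0 higher (4 and 0 after centring, 3 and 0 with the sets as a term), with a median of -2.86 points. Slc1a3, a glutamate transporter, had 22.8, 19.9, 21.7 and 18.8% in hippocampus replicates 1 to 4 and 28.6, 25.8, 26.1 and 26.4% in cortex replicates 1 to 4, and its groups did not overlap. Aldoc and Fgfr3 had 11.8 against 15.8% and 11.1 against 13.9%, and Aldh1l1 (38.2 against 45.7%) lost its call with the sets as a term (adjusted p = 0.072). Of microglia markers, 5 of 13 tested genes were called lower in hippocampus and 0 higher (4 and 0 after centring, 6 and 0 with the sets as a term), with a median of -3.69 points. P2ry12, the purine receptor of resting microglia, had 70.97 against 81.1% over its span. Its promoter, 1 kb around the start at chr3:59262985, rests on 3 cytosines. It had 34.9, 22.3, 36.8 and 28.5% in hippocampus replicates 1 to 4 and 60.7, 60.3, 61.3 and 51.03% in cortex replicates 1 to 4. Ctss, a lysosomal protease, had 69.3 against 77.3%, and Irf8, a factor of the myeloid lineage, 41.1 against 44.8%; Itgam (82.4 against 85.96%) lost its call with the sets as a term (adjusted p = 0.084). Oligodendrocyte markers had 1 lower of 10 (1 lower and 1 higher after centring, 3 and 0 with the sets as a term), the myelin gene Mbp (28.7 against 32.6%). Vessel genes had 2 lower of 11 (1 lower and 1 higher after centring, 4 and 0 with the sets as a term), Pecam1 (59.7 against 67.6%) and Kdr (36.5 against 39.3%). The tile calls were 8 lower and 1 higher of 25 in astrocyte, 6 lower and 1 higher of 31 in microglia, 5 lower and 2 higher of 49 in oligodendrocyte and 6 lower and 0 higher of 41 in vessel markers, against 17.9% and 2.4% of all tiles, and the gene calls stand against 19.7% and 1.03% of all tested genes.

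Genes of circulating leukocytes had 4 lower and 0 higher of 17 (3 lower and 1 higher after centring, 6 and 0 with the sets as a term). Over all tested genes the shares were 19.7% lower and 1.03% higher. Ctsg, which encodes the neutrophil protease cathepsin G, rested on 4 cytosines in 1 tile (chr14:56100000-56100999) and stood at 55.5, 52.4, 49.8 and 55.3% in hippocampus replicates 1 to 4 and 75.8, 84.5, 86.8 and 68.9% in cortex replicates 1 to 4. Its saline means were 51.9 and 79.6%. Cd4, the T helper cell receptor, had 12.4 against 17.5%. In leukocyte genes 5 lower and 0 higher of 37 tiles were called, against 17.9% and 2.4% of all tiles. The share of blood cells or microglia in each sample was not measured, and its part in these differences was not tested.

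The treatments that all animals shared act on cholinergic, glucocorticoid and innate immune genes. Of cholinergic genes, 8 of 21 tested genes were called lower in hippocampus and 0 higher (4 and 1 after centring, 5 and 0 with the sets as a term), with a median of -1.96 points, against 19.7% and 1.03% of all tested genes. Of their tiles, 11 lower and 0 higher of 39 were called, against 17.9% and 2.4% of all tiles. Chrna6, a nicotinic receptor subunit, had 38.8, 41.1, 37.6 and 35.4% in hippocampus replicates 1 to 4 and 64.5, 62.5, 55.4 and 53.5% in cortex replicates 1 to 4 over 8 cytosines, with a difference of -20.7 points (SE 2.55, adjusted p = 0.0016). Chrna2 and Chrnb4, other nicotinic subunits, had 67.9 against 77.4% and 13.4 against 19.8%. Chrm1, the M1 muscarinic receptor, had 23.7, 13.05, 22.7 and 23.5% in hippocampus replicates 1 to 4 and 34.9, 29.3, 26.7 and 30.8% in cortex replicates 1 to 4; it lost its call with the sets as a term (adjusted p = 0.11), as did Chrm2 and Lynx1, which are named for that after their values were seen. Ache, the target of DFP, averaged 2.36% ± 0.399 and 2.01% ± 0.680 over 88 cytosines, too low for a test.

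Of glucocorticoid and stress axis genes, 1 of 7 tested genes was called lower in hippocampus and 0 higher (1 and 3 after centring, 2 and 0 with the sets as a term), with a median of 0.229 points, against 20.7% of all tested genes. Of their tiles, 12 lower and 3 higher of 42 were called, against 17.9% and 2.4% of all tiles. The gene called was Zbtb16, a zinc finger factor that glucocorticoids induce in several tissues. It stood at 17.8, 16.3, 16.1 and 15.97% in hippocampus replicates 1 to 4 and 24, 26.4, 24.1 and 23.7% in cortex replicates 1 to 4 over 205 cytosines, with a difference of -8 points (SE 0.703, adjusted p = 5.29e-04). Of its 11 tested tiles 9 were called lower and 0 higher, with 41.3% ± 8.08 against 78.1% ± 1.70 at chr9:48792000-48792999. Nr3c1, the glucocorticoid receptor, and Fkbp5, its co-chaperone, were nearly unmethylated over their measured cytosines, at 1.13 and 1% and at 1.27 and 1.34%. Nr3c2, the mineralocorticoid receptor, had 7.24% ± 0.493 in hippocampus and 7.90% ± 0.568 in cortex as a gene (adjusted p = 0.28, and 0.029 with the sets as a term), while both of its tested tiles were called lower. Crhr1, a receptor of corticotropin-releasing hormone, had 16.8% ± 0.425 in hippocampus and 15.9% ± 0.628 in cortex (adjusted p = 0.18).

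Genes that sense LPS or answer it had few calls. Of Toll-like receptor and NF-kB genes, 1 of 19 tested genes was called lower in hippocampus and 0 higher (1 and 3 after centring, 2 and 0 with the sets as a term), with a median of -0.517 points, and of their tiles 1 of 30 was called, against 20.3% of all tiles. The gene called was Tlr3, the receptor of double-stranded RNA, at 10.6 against 15.5%. Tnf, over 6 cytosines, had 65.7, 65.6, 64.7 and 52.1% in hippocampus replicates 1 to 4 and 69.3, 67.8, 69.9 and 65.9% in cortex replicates 1 to 4; hippocampus replicate 4 was low and the difference was not called (adjusted p = 0.19). Nlrp3, the inflammasome sensor, had 80.8% ± 1.71 in hippocampus and 82.1% ± 2.47 in cortex (adjusted p = 0.63). Of interferon response genes 0 of 9 were called in either direction (0 lower and 1 higher after centring, 0 and 0 with the sets as a term). In interferon response genes 0 lower and 0 higher of 11 tiles were called. The gene calls of both lists stand against 20.7% of all tested genes. Tlr4, Cd14, Il1b and Ccl2 had fewer than 3 measured cytosines.

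Genes that pattern the forebrain and the body axis had no gene-level call in the uncentred fit without the sets. Of forebrain patterning factors 0 of 18 tested genes were called (0 lower and 5 higher after centring, 5 and 0 with the sets as a term), although 14 of 97 tiles in them (14.4%) were lower and 8 higher (8.25%), against 17.9% and 2.4% of all tiles. Of Hox genes 0 of 5 tested genes and 0 of 35 tiles were called, and 2 genes were called higher after centring and 0 with the sets as a term. Of genes of the DNA methylation machinery 1 of 12 was called (1 lower and 3 higher after centring, 1 and 0 with the sets as a term), Mbd2, a reader of methylated DNA, at 9.49 against 15.2%. Dnmt3a, a de novo methyltransferase, had 11.8% ± 0.588 in hippocampus and 12.6% ± 0.745 in cortex and Tet2, a methylcytosine dioxygenase, 18.5% ± 1.07 in hippocampus and 19.03% ± 0.831 in cortex, neither called. The tile calls in machinery genes were 6 lower and 1 higher of 35. Imprinted genes, methylated on 1 parental allele and listed as a control, had 2 lower and 0 higher of 23 (2 lower and 2 higher after centring, 5 and 0 with the sets as a term): Kcnq1 (40.1 against 46.9%) and Usp29 (56.5 against 60.6%; not with the sets as a term, adjusted p = 0.051). In imprinted genes 13 lower and 1 higher of 87 tiles were called. Over all tested features, 19.7% of genes and 17.9% of tiles were called lower, and 1.03% and 2.4% higher.

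Of neurotrophin and plasticity genes 2 of 10 were called lower and 1 higher (0 lower and 4 higher after centring, 4 and 1 with the sets as a term). The higher gene was Nr4a1, an immediate early nuclear receptor, with 24.2, 23.8, 23.8 and 23.7% in hippocampus replicates 1 to 4 and 19.5, 20.6, 21.1 and 19.2% in cortex replicates 1 to 4 over 137 cytosines. The difference was 3.80 points (SE 0.502, adjusted p = 0.002), and its tile of 22 cytosines at chr15:101270000-101270999 had 84.9% ± 2.21 against 65.6% ± 4.76. Its paralogue Nr4a3 went the other way (4.55 against 6.20%), with groups that overlapped and no call after centring. Fosl2, of the AP-1 family, had 13.2 against 15.7% and was not called after centring either. Bdnf averaged 1.97 and 1.90% over 180 cytosines, too low for a test. Of the tiles in this list, 11 lower and 6 higher of 46 were called, against 17.9% and 2.4% of all tiles. The gene calls stand against 19.7% and 1.03% of all tested genes.

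Several of these gene calls depended on a single library (limma, adjusted p over 0.05 when 1 library was left out, with the replicates concerned and the highest adjusted p in brackets). They were Aldh1l1 (hippocampus 2, 3 and 4 and cortex 1, 2 and 3, up to 0.071), Camk2a (hippocampus 3, up to 0.052), Chrm1 (hippocampus 3 and cortex 1, 2 and 4, up to 0.08) and Ctss (hippocampus 4, up to 0.051). Others were Dlg4 (hippocampus 2, 3 and 4 and cortex 1, up to 0.065), Fosl2 (hippocampus 3 and 4 and cortex 1, 2 and 3, up to 0.074), Grik1 (hippocampus 1, 2, 3 and 4 and cortex 1, 3 and 4, up to 0.12) and Irf8 (cortex 2 and 3, up to 0.055). Further ones were Itgam (hippocampus 1, 3 and 4 and cortex 1, 2, 3 and 4, up to 0.12), Kcnq1 (cortex 2, up to 0.053), Kdr (hippocampus 1, 2 and 4 and cortex 1, 2 and 3, up to 0.074) and Mbp (hippocampus 2, 3 and 4 and cortex 1, 2 and 3, up to 0.073). In addition these were Nr4a3 (hippocampus 2, 3 and 4 and cortex 1, 2 and 3, up to 0.12), Ociad2 (hippocampus 2 and 4 and cortex 2 and 3, up to 0.058), Prlr (cortex 1, 2 and 3, up to 0.062) and Scnn1a (hippocampus 2, 3 and 4 and cortex 1, 2 and 3, up to 0.064). The last were Sox6 (hippocampus 2, 3 and 4 and cortex 1, 2, 3 and 4, up to 0.11) and Usp29 (hippocampus 2, 3 and 4 and cortex 1, 2 and 3, up to 0.09). Prox1, Zbtb20, Zbtb16, Hopx, Grik4, Bcl11b, Chrna6, Ctsg and Nr4a1 kept their calls without each library in turn.

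**Figure D5:**
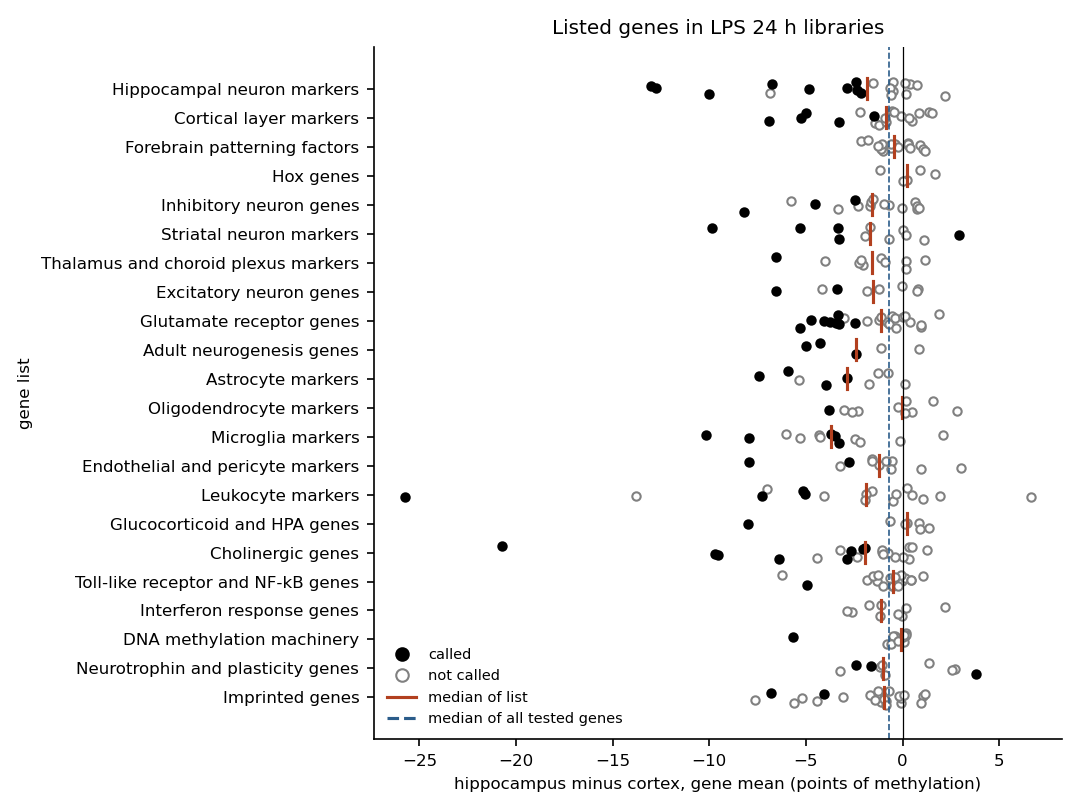
Difference of each tested gene of the 22 lists, hippocampus minus cortex in points of methylation without centring (x axis), with called genes filled and others open; red bars are the list medians and the dashed line the median of all tested genes (-0.726 points). Called genes lie to the left of 0 in all lists but 2, where Drd1 and Nr4a1 lie to the right, and Ctsg and Chrna6 are farthest to the left.

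Promoters, taken as 1 kb either side of a RefSeq start, were called lower in hippocampus in 555 of 3182 cases (17.4%) and higher in 30 (0.943%), 18.4% in all. The lower promoters stood at a median of 22.5% in hippocampus and 40.9% in cortex. Aqp2, a water channel of the kidney, had 38.1, 25.3, 28.5 and 22% in hippocampus replicates 1 to 4 and 64.4, 70.7, 62.2 and 54.8% in cortex replicates 1 to 4 over 6 cytosines. Cntf, the ciliary neurotrophic factor, had 51.7% ± 9 in hippocampus and 83.3% ± 4.31 in cortex over 3 cytosines. Ctbp2, a corepressor whose alternative product is a protein of synaptic ribbons, had 53.4% ± 3.59 in hippocampus and 79.8% ± 4.65 in cortex. Rag1, a recombinase of lymphocytes, had 25.3% ± 6.09 in hippocampus and 50.3% ± 3.21 in cortex over 11 cytosines. Among the higher ones, Hrh1, a histamine receptor, had 75.4% ± 8.54 in hippocampus and 55.7% ± 3.40 in cortex and Nobox, an oocyte homeobox gene, 56.3% ± 4.76 in hippocampus and 36.4% ± 6.41 in cortex. With the strand sets as a term 587 promoters were called lower and 12 higher, and Hrh1 was not among the latter (adjusted p = 0.051). Levels in named promoters come from tables made separately for each region.

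Hairpins of 90 microRNAs lay in tested tiles, and 6 of them (6.67%) in called tiles, against 20.3% of all tiles. Those with the largest difference and miR-181d-5p are shown as their mature forms from RefSeq, with the seed (bases 2 to 8) in capitals; no 2 of them share a seed.
mmu-miR-5123: uGUAGAUCcauaugccauggugug
mmu-miR-1249-3p: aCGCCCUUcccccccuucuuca
mmu-miR-181d-5p: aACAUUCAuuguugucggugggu
The tile over Mir5123, inside B4galt1 (chr4:40850000-40850999), stood at 56.3, 51.1, 44.7 and 34.9% in hippocampus replicates 1 to 4 and 76.1, 80.99, 68.4 and 73.9% in cortex replicates 1 to 4. The tile over Mir1249 (chr15:84951000-84951999) stood at 77.7, 58.3, 77.5 and 65.6% in hippocampus replicates 1 to 4 and 93.6, 90.4, 98.1 and 92.1% in cortex replicates 1 to 4. The tiles over Mir5123 and Mir1249 rest on 3 cytosines each. The tile over Mir181d (chr8:84178000-84178999), outside RefSeq protein-coding genes, had 68.4% ± 7.40 in hippocampus and 81.1% ± 3.27 in cortex, and its call was lost with the strand sets as a term (adjusted p = 0.11). The other 3 were Mir6910 (-14.2 points), Mir7008 (9.42 points) and Mir7023 (8.25 points, adjusted p = 0.37 with the sets as a term). Expression of these microRNAs was not measured.

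Most tiles called at LPS 24 h had the same direction without LPS. In the 7 saline libraries, which share none with this comparison, 9286 of the 9791 lower tiles were lower in hippocampus on average and 1276 of the 1313 higher tiles higher (94.8 and 97.2%), against 69.6% with the same sign over all tested tiles. The threshold itself was passed by 3921 of the lower and 787 of the higher tiles, with 11% of all tiles called in saline. Over all tested tiles, 4356 were called lower and 1689 higher in saline, with a median of -0.109 points, against 9791 and 1313 and a median of -1.67 points at LPS 24 h, with other numbers of libraries. In saline with the strand sets as a term the median was -1.68 points. All 3 hippocampus saline libraries are in neither set, so that fit compares them with cortex saline replicate 1 alone. Of the tiles called at LPS 24 h, 2422 and 543 passed the saline threshold without hippocampus saline replicate 2. The median difference in saline was -10.3 points over the lower and 13.9 over the higher tiles, against -16.2 and 13.04 points at LPS 24 h, where the tiles were chosen. With the strand sets as a term, these saline medians were -13.3 and 9.80 points, so the difference over the higher tiles was smaller. At LPS 6 h, 99.3% of the lower and 95.5% of the higher tiles measured in all 6 brain tables had the same direction, and at 12 h 97.3 and 96.5%, over 9094 and 1141 tiles; over all tiles these shares were 76.03 and 73.1%.

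A test of whether the regional difference itself differed between LPS 24 h and saline called 1 of 54829 tiles (0.00182%; limma interaction), with 4032 at an unadjusted p under 0.05. The tile lay inside Rbm26, an RNA-binding protein gene, at chr14:105168000-105168999, with 5 cytosines. At LPS 24 h it stood at 12.1, 3.64, 9.79 and 9.37% in hippocampus replicates 1 to 4 and 37.3, 38.4, 30.8 and 32.3% in cortex replicates 1 to 4, and in saline at 26.4, 31.7 and 27.3% in hippocampus and 24.5, 24.7, 29.7 and 28.2% in cortex. Hippocampus was thus the lowest group at LPS 24 h and the saline groups overlapped. The interaction of -27.7 points (limma, adjusted p = 0.032) was not called after centring, with the strand sets as a term or against the LPS 6 h libraries. It was also not called when any of 12 of the 15 libraries was left out. Without hippocampus replicate 1, cortex replicate 3 or cortex saline replicate 3, 1 tile was called each time. Whether that was the tile in Rbm26 was not recorded.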

How the data were processed

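DNA methylation was measured in 8 RRBS libraries, prepared with the Ovation RRBS Methyl-Seq kit (100 ng of input DNA) per the labels' protocols. The authors deposited percent methylation per cytosine and library, in 1 table per tissue and time. The submitters' processing notes name methylKit, Bismark, Bowtie2, SAMtools, Trim Galore and FastQC and the build GRCm38/mm10. Versions, settings, the coverage minimum and any normalisation between libraries were not given in the sources used here. Hippocampus and cortex values come from separate tables. A percentage is a ratio within a library, so levels were set side by side without rescaling, and a fit on values centred by library was run beside it. Read depth is unknown. 22 per-sample columns of whole blood were not used.

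Cytosines were joined on chromosome, position and strand. Means over cytosines, tiles, gene spans (RefSeq GRCm38.p6, 1 kb either side) and promoters were compared with limma 3.58.1 in R 4.3.3 (empirical Bayes with a trend, two-sided; p adjusted by Benjamini-Hochberg over all features of a kind with a mean of 5 to 95% and, beyond single cytosines, at least 3 cytosines). Means ± SD are over 4 libraries. The whole-library mean was compared by an exact permutation test. The script was checked on simulated tiles with known differences. Of measured CpGs in RefSeq promoter windows, 148091 of 148092 fell on the letters CG, which checks build and strand. Strand sets were found by clustering the strand differences of libraries, without using region. Other tools were Python 3.11.15, numpy 2.4.6, pandas 2.3.3, scipy 1.17.1, matplotlib 3.10.9 and arrow 21.0.0.

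Named tiles are the 10 largest differences in each direction among called tiles in or within 1 kb of a gene whose groups do not overlap, 1 per gene; stretches are the 5 with most tiles per direction; listed genes are up to 4 called genes with the largest difference per list, and 14 genes were fixed by name; some named items are not reported here. Promoters and microRNAs shown, and genes with tile counts, were chosen after their values were seen. The comparison, its gene lists and the rule for names were chosen with earlier results of these data known. Alternatives were another scaling, a logit scale, a replicate block, leaving out each library, other filters, tile sizes and thresholds, and the strand sets as a term.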

Additional observations from a re-analysis of the deposited data

Results flagged for a closer look

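Of 172 groups of 4 libraries behind the values above, 10 had a library whose gap to the nearest other, as a share of the range, passed Dixon's 95% critical value, and chance alone gives about 1 in 20. These were hippocampus replicate 1 85.6% against 90.97 to 92.02% in the other 3 for the tile in Eif4g3, hippocampus replicate 3 11.8% against 20.7 to 21.5% in the other 3 for the tile in Slco2a1, hippocampus replicate 1 39.8% against 33.99 to 34.9% in the other 3 for the gene Pdyn, hippocampus replicate 1 17.8% against 15.97 to 16.3% in the other 3 for the gene Zbtb16. They were also hippocampus replicate 2 13.05% against 22.7 to 23.7% in the other 3 for the gene Chrm1, hippocampus replicate 1 24.2% against 23.7 to 23.8% in the other 3 for the gene Nr4a1, hippocampus replicate 4 12.05% against 13.5 to 13.7% in the other 3 for the gene Fosl2. The others were cortex replicate 3 4.51% against 3.31 to 3.51% in the other 3 for the gene Tbr1, cortex replicate 3 8.74% against 7.53 to 7.71% in the other 3 for the gene Nr3c2 and hippocampus replicate 4 52.1% against 64.7 to 65.7% in the other 3 for the gene Tnf.

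The tile in Rbm26 was taken up because its regional difference at LPS 24 h differed from that in saline by -27.7 points (limma interaction, adjusted p = 0.032), all 4 hippocampus LPS libraries lying below all others.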

How the results depend on the processing

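With the replicate number as a replicate block, 20552 cytosines, 11404 tiles, 2130 genes and 564 promoters were called and the mean difference had p = 0.12 (exact sign permutation); the numbers are not shown to pair libraries, since deviations of same-numbered libraries correlated at -0.112, -0.138, -0.337 and 0.127. The difference of the median over cytosines was 0.425 points, opposite in sign to that of the means (p = 0.49, exact). Leaving out 1 library gave mean differences of -1.53 to -0.946 points, 16320 to 26000 cytosines, 9050 to 10567 tiles, 1435 to 2384 genes, 424 to 575 promoters, 0 to 1 interaction tiles and 2965 to 4385 of the called tiles past the threshold in saline. Without the filter on the mean 9851 cytosines and 297 promoters were called, among more features tested. Stricter rules gave 18185 cytosines (25 points), 977 genes (5 points), 459 genes from gene ends alone and 1375 of 6822 tiles with at least 10 cytosines. The interaction called 0 tiles after centring (3702 at unadjusted p under 0.05, limma), with the strand sets as a term (5081) and against LPS 6 h (1635). The strand sets, the fits without set B and without CpGs whose strands disagree (10524 tiles, 2678 genes) and the promoter counts were chosen after seeing the data. The other counts stayed within 1.5 times. All 20 named tiles kept direction and call in every setting that could test them (3 had too few cytosines left without discordant CpGs); of 53 named called genes none changed direction and 22 lost the call in at least 1 setting. No read depth limits could be set, because the tables hold no counts.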
